A study of Homo sapiens with 24 samples.

Results

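The dexamethasone response of cells carrying the K154Q glucocorticoid receptor was compared here with that of cells carrying the K154R receptor. The quantity of interest was the difference between the responses, each being the change from vehicle to dexamethasone. The libraries were chosen by their labels: all 16 libraries of the K154R and K154Q receptors entered, out of 24 in the series. The other 8 libraries carry the wild-type (WT) receptor and were used only to choose a set of genes. Dexamethasone and vehicle libraries with the same receptor and replicate number were treated as a pair, which gave 4 pairs for each receptor.

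All cells were HepG2, a human liver cancer line, in which the gene of the glucocorticoid receptor (NR3C1) had been knocked out with CRISPR/Cas9; whether that line is 1 clone is not stated in the labels. Every group, controls included, then received a doxycycline-inducible lentiviral cDNA for a Ty1-tagged receptor. In K154R a lysine of the receptor is replaced by arginine, which cannot be acetylated; in K154Q it is replaced by glutamine, which resembles an acetylated lysine. The 4 groups were K154R with vehicle, K154R with dexamethasone, K154Q with vehicle and K154Q with dexamethasone, with 4 libraries in each. Receptor expression was induced for 24 h with 0.3 to 1 µg/mL doxycycline, a range used to match receptor protein between lines, and the sources used here do not give the dose for each line. After 24 h of washout in charcoal-stripped medium, cells received 1 µM dexamethasone or the same volume of ethanol for 6 h. Replicates came from separate experiments and separate transductions, but the labels do not tie a replicate number to either. Any other difference between the transduced lines, doxycycline dose included, cannot be told apart from the receptor change.

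The glucocorticoid receptor is a transcription factor of the nuclear receptor family. Bound by a glucocorticoid such as dexamethasone, it leaves its chaperones, enters the nucleus and binds DNA, where it recruits coregulators that raise or lower transcription of nearby genes. In liver it drives genes of amino acid, glucose and lipid metabolism, together with feedback genes such as FKBP5. The exchanged lysine lies in the amino-terminal part of the protein, outside the DNA-binding and hormone-binding domains.

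The reference gene around the compared position is given because the receptors differ only there by their labels. The stretch is from the GRCh38 genome with GENCODE 29 annotation, chr5:143400348-143400410, minus strand, in exon 2 of 9 of transcript ENST00000394464.6. Capitals mark the codon of the exchanged lysine, at bases 143400378 to 143400380. The sources used here do not give the codons of the constructs.
NR3C1 around the exchanged lysine: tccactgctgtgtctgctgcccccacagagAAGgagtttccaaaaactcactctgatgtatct

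Libraries held 23863672 to 42072021 counts and detected 23420 to 25659 genes. Of the 14 hepatocyte markers, all were tested, and their summed level was 50074 to 62148 CPM (counts scaled to library size) across libraries. The 14 markers of other cell types summed to 492 to 1035 CPM, nearly all of it from LYZ, and PTPRC, CD3E and NEUROD1 were at 0 in all 16 libraries. NR3C1 RNA, which sums what remains of the edited gene and the construct where their sequences are shared, was 73.4 to 98.4 CPM in K154R vehicle libraries and 71.2 to 95.1 in K154R dexamethasone libraries. In K154Q it was 72.9 to 101 CPM with vehicle and 69.8 to 102 with dexamethasone. The 4 groups overlapped, and the difference of NR3C1 responses was 0.08 on the log2 scale (SE 0.06, 95% interval -0.05 to 0.21).

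Dexamethasone changed genes with both receptors. Averaged over the receptors, 565 of 15871 tested genes rose (3.56%) and 180 fell (1.13%) at an adjusted p under 0.05 (edgeR's quasi-likelihood test, Benjamini-Hochberg adjustment). With K154R alone 328 genes rose (2.07%) and 51 fell (0.321%), and with K154Q alone 205 rose (1.29%) and 20 fell (0.126%). Of these, 170 rose with both receptors and 11 fell with both. These counts rest on the pairing: without it, 95 genes rose and 4 fell on average. They also depended on single libraries, since leaving out pair 3 of K154R gave 1051 rising and 827 falling genes. Which receptor had more calls turned as well: K154R had 379 and K154Q 225, but without pair 2 of K154R they had 480 and 519, and without K154R pairs 2 and 3 together 487 and 928. Counts of calls past a threshold do not show that the receptors differ, which is the question of the test of the difference itself.

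No gene passed that test. Of 15871 genes, 0 had a K154Q response called higher and 0 called lower than the K154R response (0%, edgeR's quasi-likelihood test, lowest adjusted p 1.0). At an unadjusted p under 0.05 there were 504 genes (3.18%), of which 340 were lower in K154Q (2.14%) and 164 higher (1.03%). The number and the split were unstable: from 106 genes without the pairing to 1538 without K154R replicate 2, where 757 were lower and 781 higher. More were higher than lower also without K154Q replicate 2 (162 lower, 221 higher), without a filter (319 and 457) and without K154R pairs 2 and 3 together (514 and 597). DESeq2 called 0 genes with 156 at an unadjusted p under 0.05, and limma-voom called 0 with 503. For the 10355 genes that averaged 5 CPM or more the 95% interval of the difference lay within 1.5-fold either way in 99.8%, and the median SE was 0.0792 on the log2 scale. A larger difference was therefore outside the interval for nearly all well-expressed genes. Most of these did not respond detectably: of the 10355, 326 were called in the K154R response and 189 in the K154Q response. No smaller difference passed the test, which does not show that smaller ones are absent.

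Although no single gene passed, most of the genes that dexamethasone raised most had a K154Q response below the K154R response. Of the 65 genes that rose on average by at least 0.5 on the log2 scale with a mean of at least 1 CPM, 55 (84.6%) had a negative difference, against 52.1% of all tested genes. The median response of the 65 was 0.71 with K154R and 0.64 with K154Q, and the median difference was -0.15. At an unadjusted p under 0.05, where 2.14% of all tested genes were lower in K154Q, there were 16 of the 65, lower each time. That number was 1 without the pairing, 7 with DESeq2, and 7 without K154R replicate 4, K154Q replicate 1 or K154Q replicate 3, up to 23 without K154R replicate 3; 1 gene was higher without K154R replicate 2, K154Q replicate 2 or K154Q replicate 4. In 5 of the 65 (7.69%) all 4 K154Q pairs lay below all 4 K154R pairs, against 1.56% of all tested genes. The average of both receptors chose these genes, so their being raised is no finding, and genes that share regulation are not independent of each other. Among all 565 genes that rose, 66.7% had a negative difference with a median of -0.04. Among the 180 that fell, 36.1% had a negative difference with a median of 0.02. For replicate number 3 alone both sides went the other way. K154Q minus K154R, taken gene by gene, had a median of 0.06 over the genes that rose. The genes that fell had a median response of -0.19 in K154Q and -0.12 in K154R. Pair responses also spread more with K154R, with a median SD of 0.121 against 0.0841 over genes of at least 5 CPM, and the part of this unequal spread in the counts over genes chosen on the average was not tested. Over the 65 genes the median SD was 0.247 with K154R and 0.238 with K154Q.

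**Figure D1:**
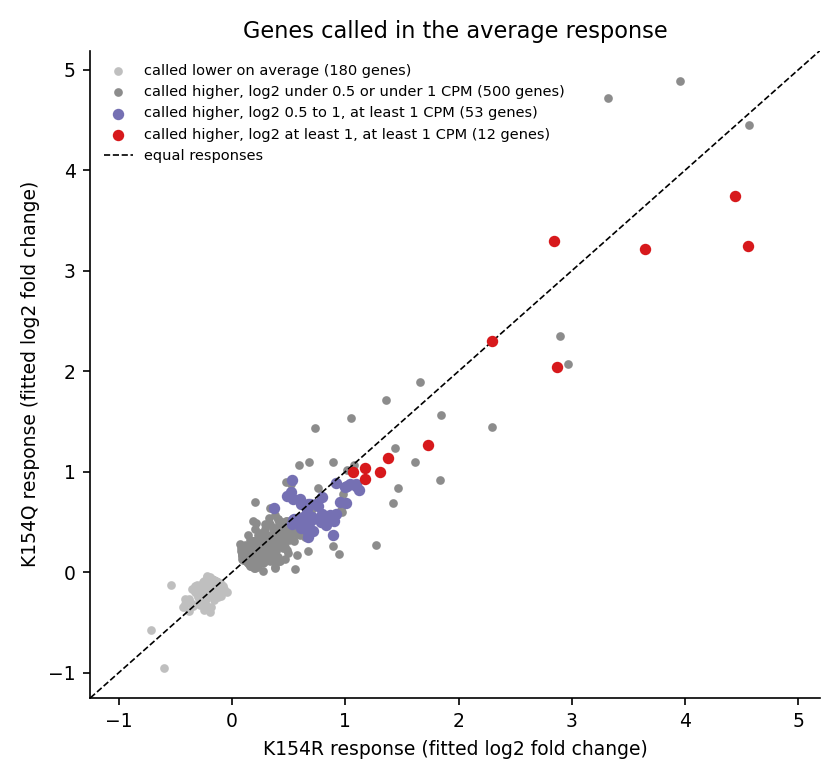
Fitted log2 fold change by dexamethasone with K154R (x axis) and K154Q (y axis) for genes called in the average response, with the dashed line marking equal responses. Of the 65 genes with an average of at least 0.5 and at least 1 CPM (purple and red), 55 lie below the line, and none of the differences passed the test.

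By replicate number the size of the difference varied. A pair response is the log2 CPM with dexamethasone minus that with vehicle, with a prior count of 2, which draws scarce genes toward 0. The median pair response of the 65 genes was 0.73, 0.91, 0.63 and 0.85 in K154R pairs 1 to 4, and 0.56, 0.59, 0.58 and 0.74 in K154Q pairs 1 to 4. K154Q pair 4 lay above the 2 lowest K154R pairs, so the groups overlapped. Within a replicate number K154Q minus K154R was also taken gene by gene. Its median over the 65 genes was -0.17, -0.26, -0.03 and -0.13, with 46, 55, 38 and 45 genes lower in K154Q. The direction was the same for all 4 numbers, and the gap was smallest for number 3. Numbers were matched across receptors by label, and the main model does not join them. On deviations from group means, libraries of the same number and treatment correlated at 0.19 or more across receptors. Leaving out 1 pair at a time gave 46 (without K154Q replicate 3) to 57 (without K154R replicate 3) of the 65 genes with a negative difference.

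**Figure D2:**
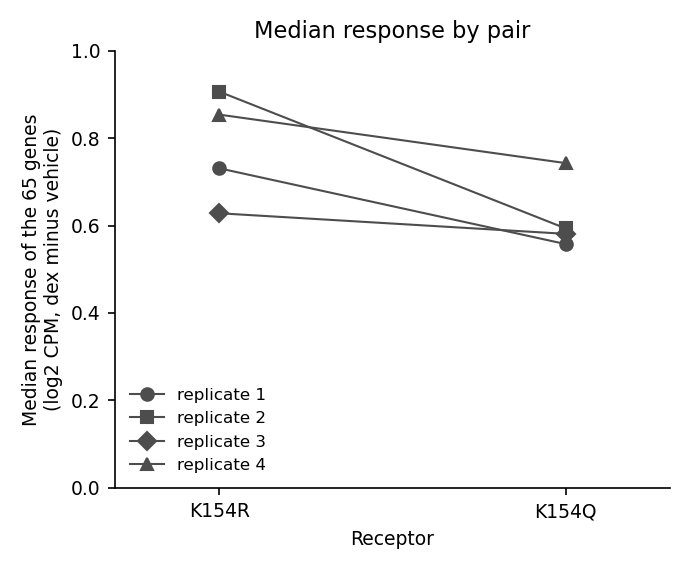
Median response over the 65 genes (log2 CPM, dexamethasone minus vehicle) in each of the 4 pairs of K154R and K154Q, with lines joining the same replicate number. Every line slopes down from K154R to K154Q, from 0.63 to 0.58 for number 3 and from 0.91 to 0.59 for number 2.

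Genes picked in other libraries gave like values. In the 8 WT libraries alone, edgeR called 94 genes higher and 1 lower with dexamethasone among 15335 tested, and the same minimums of 0.5 and 1 CPM left 42 genes, of which 40 were among the 65. Of these 42, 37 (88.1%) had a negative difference between K154Q and K154R, against 52.1% of all tested genes. Their median response was 0.91 for K154R and 0.74 for K154Q, and the median difference was -0.16. At an unadjusted p under 0.05, where 2.14% of all tested genes were lower in K154Q, there were 15 of the 42, lower each time. The number of lower genes was 1 without the pairing, 5 without K154Q replicate 1, 6 with DESeq2 and 20 without K154R replicate 3. Up to 2 genes were higher in some settings. The WT choice used no value of the libraries compared. Because it was added after the data were seen and shares most of its genes with the 65, it is not separate evidence. Over the other settings tried, 32 to 38 of the 42 had a negative difference, against 45.9% to 53.6% of all tested genes.

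The 12 genes with the strongest rises, at least 1 on the average log2 scale with a mean of at least 1 CPM, are given next in full; most were named because they belong to this set, after their values were seen. Their median response was 2.01 with K154R and 1.65 with K154Q, and the median difference was -0.28. In 10 of the 12 the difference was negative, against 52.1% of all tested genes. K154Q minus K154R was also taken gene by gene within each replicate number. The median of these 12 values was -0.44, -0.29, -0.12 and -0.06 for numbers 1 to 4. The genes lower in K154Q numbered 10, 11, 8 and 6, so number 4 was evenly split. The receptors overlapped: the median pair response was 1.59 in K154R pair 3, below 1.80, 1.69 and 1.68 in K154Q pairs 2, 3 and 4. By that median K154Q was not lower for numbers 2 and 3 (1.80 against 1.79, and 1.69 against 1.59). It was lower for numbers 1 and 4 (1.23 against 2.25, and 1.68 against 2.16). Of the 12, 4 averaged at least 5 CPM (PGC, FKBP5, SYBU and HOMER2), and the others were scarce.

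PNMT, which makes adrenaline from noradrenaline, had the widest gap. It was at 0.071, 0.208, 0.0968 and 0.126 CPM in K154R vehicle libraries and at 2.59, 3.28, 1.96 and 4.50 with dexamethasone. In K154Q it was at 0.239, 0.179, 0.441 and 0.0691 CPM with vehicle and at 1.19, 2.30, 1.998 and 3.37 with dexamethasone. PNMT thus rose in all 8 pairs, and the groups overlapped both with vehicle and with dexamethasone. The fitted log2 response was 4.55 with K154R (SE 0.32) and 3.24 with K154Q (SE 0.30), a difference of -1.31 (SE 0.58, unadjusted p = 0.0343, 95% interval -2.51 to -0.106, adjusted p 1.0 by edgeR). The summed vehicle counts behind it were 16 for K154R and 27 for K154Q, and without K154Q replicate 3 the difference was -0.84. With dexamethasone the sums were 368 and 300.

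LGI4, a secreted protein known from myelinating Schwann cells, was at 0.213, 0.237, 0.581 and 0.463 CPM in K154R vehicle libraries and at 1.99, 2.13, 3.01 and 3.74 with dexamethasone. In K154Q it was at 0.209, 0.239, 0.521 and 1.07 CPM with vehicle and at 0.738, 1.32, 2.45 and 3.87 with dexamethasone. Its pair responses did not overlap: 2.25 to 2.89 for K154R and 1.56 to 2.19 for K154Q. The fitted difference was -0.82 (SE 0.32, unadjusted p = 0.0171, adjusted p 1.0 by edgeR). NXPH3, a neurexophilin that binds neurexins, also had pair responses apart, 1.496 to 1.91 for K154R and 0.59 to 1.48 for K154Q, with a difference of -0.47 (SE 0.21, unadjusted p = 0.0392), which was -0.27 without K154Q replicate 1. In both genes the CPM with dexamethasone overlapped between receptors, and the separation was in the change from each pair's own vehicle library.

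PGC, the precursor of the stomach protease pepsin C, was the most abundant gene of the set for which the unadjusted p was under 0.05. Its level was 61.5, 46.5, 55.0 and 51.2 CPM in K154R vehicle libraries and 144, 124, 113 and 149 with dexamethasone. In K154Q the level was 71.6, 41.4, 56.1 and 43.0 CPM with vehicle and 112, 81.4, 99.98 and 128 with dexamethasone. K154Q dexamethasone libraries 1 to 3 lay below all K154R ones, and library 4 lay among them. The response was 1.304 with K154R and 1.00 with K154Q, and the difference was -0.30 (SE 0.13, 95% interval -0.58 to -0.03), which was -0.18 without K154Q replicate 1 and -0.48 without K154Q replicate 4.

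FKBP5, the cochaperone that lowers the receptor's hormone affinity and one of its standard targets, rose with both receptors. Its level went from 58.4, 47.7, 50.8 and 44.4 CPM with vehicle to 106, 119, 101 and 129 with dexamethasone in K154R. In K154Q it went from 55.5, 49.8, 54.3 and 46.2 CPM to 94.1, 106, 101 and 121. Vehicle and dexamethasone libraries were apart for each receptor, while the receptors overlapped. Its difference was -0.13 (SE 0.12, 95% interval -0.39 to 0.12), and without 1 pair it ran from -0.24 (without K154R replicate 1) to -0.018 (without K154R replicate 4). SYBU, a microtubule-linked transport protein, had responses of 1.38 and 1.14 and a difference of -0.24 (SE 0.12, 95% interval -0.48 to 0.0043), which was -0.15 without K154Q replicate 3. HOMER2, a scaffold of postsynaptic signalling, had responses of 1.06 and 1.00 with a difference of -0.07 (SE 0.10).

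The other 5 genes had intervals that held 0 and were wide for most of them. KCNH2, a cardiac potassium channel, had responses of 3.65 with K154R and 3.22 with K154Q. NAPSB, a transcribed pseudogene related to the protease napsin, had 4.44 and 3.74, and GPR153, an orphan receptor, had 1.18 and 0.93. OTULINL had 2.29 and 2.30. UPP2, a uridine phosphorylase of liver, went the other way, with 2.84 for K154R and 3.29 for K154Q and a difference of 0.45 (SE 0.44, 95% interval -0.46 to 1.36). Single pairs decided much of these values: without 1 pair, UPP2 ran from 0.047 (without K154Q replicate 4) to 0.86 (without K154Q replicate 3), KCNH2 from -0.80 (without K154R replicate 1) to -0.10 (without K154R replicate 4), NAPSB from -1.23 (without K154Q replicate 4) to -0.093 (without K154Q replicate 2) and GPR153 from -0.45 (without K154Q replicate 4) to -0.083 (without K154Q replicate 1). Over the 12 genes the 95% interval of the difference lay within 1.5-fold either way for 5 and within 2-fold for 7.

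**Figure D3:**
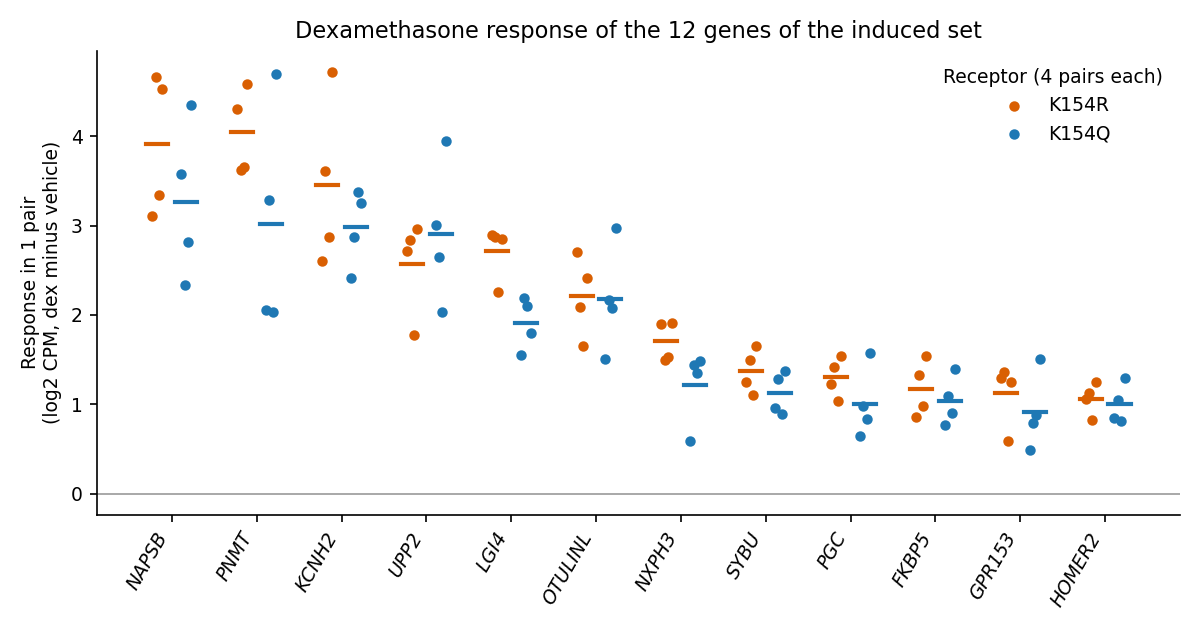
Response of the 12 genes in each pair (log2 CPM, dexamethasone minus vehicle, 4 pairs per receptor; short lines are means), ordered by average response. K154R and K154Q points overlap for 10 genes and are apart for LGI4 and NXPH3.

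Among the genes of moderate response, FSTL3 and CKB had the smallest p of all genes that rose. FSTL3, a secreted protein that binds and blocks activins, was at 69.1, 109, 72.6 and 82.8 CPM in K154R vehicle libraries and at 129, 231, 112 and 144 with dexamethasone. In K154Q it was at 78.04, 113, 63.6 and 95.1 CPM with vehicle and at 107, 165, 89.2 and 148 with dexamethasone. Pair responses were 0.63 to 1.08 for K154R and 0.46 to 0.64 for K154Q, with K154Q pair 4 just above K154R pair 3. The fitted responses were 0.86 (SE 0.06) and 0.54 (SE 0.06), and the difference was -0.32 (SE 0.08, unadjusted p = 5.4e-04, adjusted p 1.0 by edgeR). Without pair 3 of K154R the difference was -0.39 with an adjusted p of 0.0310 by edgeR. The adjusted p of FSTL3 ran from 0.0310 to 1.0 over the alternatives.

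CKB, the brain form of creatine kinase, was at 204, 212, 231 and 357 CPM in K154R vehicle libraries and at 296, 336, 424 and 611 with dexamethasone. In K154Q it was at 215, 199.7, 283 and 409 CPM with vehicle and at 265, 283, 356 and 578 with dexamethasone. CKB levels overlapped between receptors, but its pair responses were apart, 0.54 to 0.87 for K154R and 0.31 to 0.50 for K154Q. Its difference was -0.30 (SE 0.08, unadjusted p = 6.0e-04). SCNN1A, the alpha subunit of the epithelial sodium channel, had fitted responses of 0.91 and 0.57, a difference of -0.34 (SE 0.10, unadjusted p = 0.0017) and pair responses that did not overlap, 0.80 to 1.05 against 0.28 to 0.72. Without K154Q replicate 2 the SCNN1A difference was -0.22. CCDC68, named after its values were seen, was the last of the 5 genes without overlap, with responses of 0.90 and 0.51 and a difference of -0.39 (SE 0.12). PTGDR2, a receptor of prostaglandin D2 also named after its values were seen, had responses of 1.00 and 0.69 with a difference of -0.31 (SE 0.12), which was -0.18 without K154R replicate 4.

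The other genes with the smallest p for a lower K154Q response had small average responses, from -0.03 for ANTKMT to 0.14 for CHST12. CHST12, a chondroitin sulfotransferase, had responses of 0.27 with K154R and 0.01 with K154Q, and its pairs were apart, 0.17 to 0.39 against -0.09 to 0.06. NPDC1 had the smallest p of all, with 0.25 and -0.12 and a difference of -0.37 (SE 0.09, unadjusted p = 4.9e-04). CRELD2, a protein of the endoplasmic reticulum induced by misfolded proteins, had 0.19 and -0.05. TMEM147, a membrane protein of the same compartment, had 0.13 and -0.11, and ANTKMT, a mitochondrial lysine methyltransferase, had 0.10 and -0.17. In NPDC1, TMEM147, CRELD2 and ANTKMT the receptors' fitted responses had opposite signs.

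On the other side, none of the 8 genes with the smallest p for a higher K154Q response passed the test of the average response. GTF2I, a general transcription factor, had responses of -0.14 with K154R and 0.12 with K154Q. It has near-identical copies in the genome, so its counts are uncertain. ZEB1, a repressor of epithelial genes, had -0.13 and 0.15, ZYG11B, a part of a ubiquitin ligase, had -0.06 and 0.18, and SIPA1L3 had -0.08 and 0.19. C12orf4 had -0.18 and 0.08, and the zinc-finger gene ZNF525 had -0.22 and 0.23. The non-coding RNAs TMEM11-DT and LINC02535 had the widest differences, 0.78 (SE 0.26) and 0.66 (SE 0.24), at levels of 0.762 to 1.80 CPM and 1.22 to 2.15 CPM. None of these genes belongs to the 65, whereas FSTL3, CKB and SCNN1A do.

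**Figure D4:**
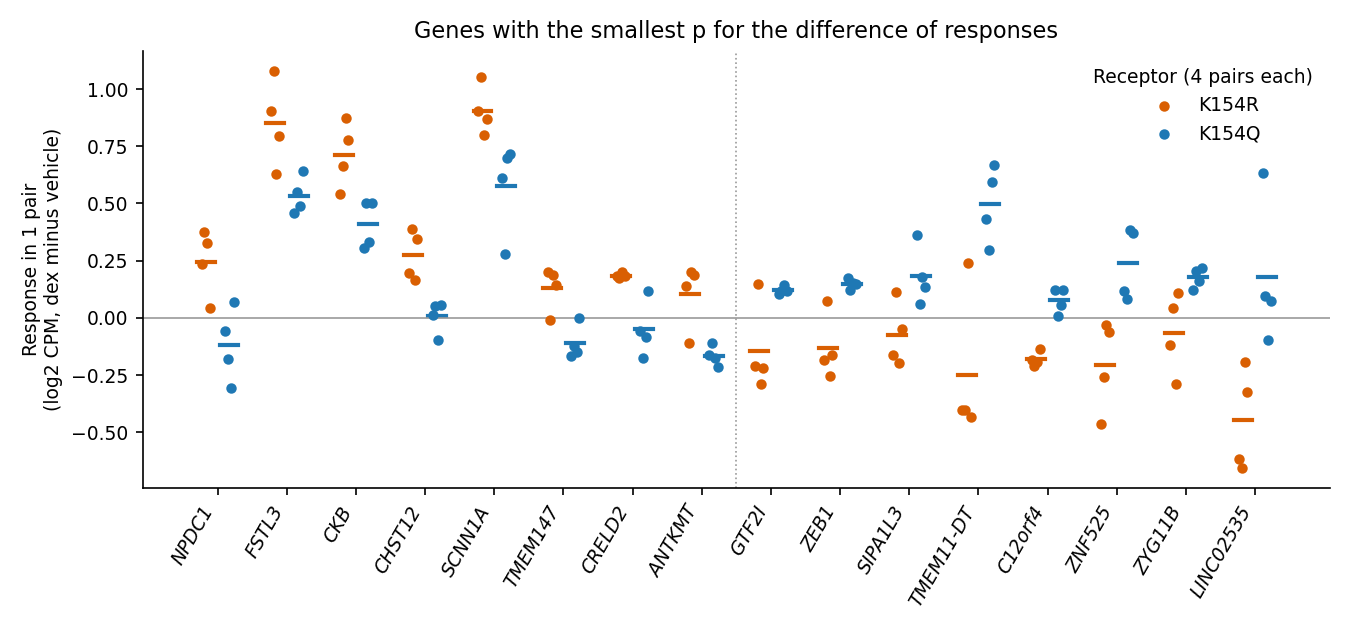
Response in each pair (log2 CPM, dexamethasone minus vehicle; short lines are means of 4 pairs) for the 8 genes with the smallest p lower in K154Q (left of the dotted line) and the 8 higher in K154Q (right). FSTL3, CKB and SCNN1A were raised in all 8 pairs, while the genes on the right lie around 0 with K154R mostly below and K154Q mostly above.

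Known targets of the receptor were examined as a list. Of 28 genes known to be induced by glucocorticoids 24 were tested, and 18 rose on average while 0 fell, against 3.56% of all tested genes rising. With K154R 17 rose and with K154Q 15. The difference was negative in 22 of the 24 (91.7%, against 52.1% of all tested genes), and its median was -0.10. Of the 24, 0 passed the test and 2 had an unadjusted p under 0.05, against 3.18% of all tested genes. Leaving out 1 pair or changing another setting gave 17 to 22 of 24. Strongly raised targets can also belong to the set of genes that dexamethasone raised most, and the overlap was not counted. The libraries are the same, and the list was chosen with earlier results of these data known. The list is therefore not separate evidence.

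Among the feedback and signalling targets, TSC22D3, the anti-inflammatory leucine-zipper protein GILZ, had responses of 2.90 and 2.35 with a difference of -0.55 (SE 0.49), which was -0.97 without K154Q replicate 4 and -0.21 without K154Q replicate 1. Its level was scarce, 0.0947 to 0.505 CPM in K154R vehicle libraries and 0.0802 to 0.276 in K154Q, rising to 0.922 to 3.86 and 0.351 to 2.38. DUSP1, a phosphatase that switches off MAP kinases, had responses of 0.59 and 0.52 with a difference of -0.08 (SE 0.09). The DUSP1 level was 10.3, 11.2, 13.2 and 14.6 CPM with vehicle and 14.1, 17.7, 19.1 and 23.8 with dexamethasone in K154R, and 9.58, 10.7, 13.3 and 13.2 against 13.6, 15.5, 18.1 and 19.6 in K154Q. It went up in all 8 pairs, by similar steps. ERRFI1, a feedback inhibitor of the EGF receptor, had 0.65 and 0.56, and PER1, a clock gene, had 0.60 and 0.54.

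CAVIN2, a caveolar coat protein, had the smallest p for the average response of all tested genes. Its responses were 1.02 and 0.86, with a difference of -0.16 (SE 0.07, unadjusted p = 0.0466). MT2A, a metal-binding metallothionein with close relatives whose reads may be shared, was named after its values were seen and had 0.55 and 0.31 with a difference of -0.24 (SE 0.07, unadjusted p = 0.0045). CEBPD, a transcription factor of the acute-phase response, had 1.04 and 0.87. ANGPTL4, an inhibitor of lipoprotein lipase, had 0.99 and 0.85 with a difference of -0.15 (SE 0.28). HIF3A, at a mean of 0.339 CPM and named after its values were seen, had a higher K154Q value, 4.89 against 3.96, with a difference of 0.93 (SE 1.06).

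PDK4, a kinase that shuts off pyruvate dehydrogenase in fasting, showed what low counts allow. K154R held 2 counts with vehicle and 60 with dexamethasone over 4 libraries each, a ratio of 33.3 (95% exact binomial interval 8.81 to 281 for counting error only). K154Q held 2 and 59, a ratio of 26.5 (7.03 to 224). The intervals overlap over most of their length, so a difference in the PDK4 response was not detectable at this depth.

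None of the other lists held a gene called for the difference. Their counts stand against 3.56% of all tested genes rising, 1.13% falling and 52.1% with a negative difference. Of 22 tested liver metabolic genes under glucocorticoid control 9 rose on average, 13 (59.1%) had a negative difference, near the share of all genes, and the median difference was -0.02. Among them NAGS, which starts the urea cycle, had responses of 1.09 and 0.88 with a difference of -0.21 (SE 0.16), while TAT, which breaks down tyrosine and was named after its values were seen, had 0.34 and 0.64 with a difference of 0.30 (SE 0.20). Of 20 genes of cholesterol synthesis and uptake 8 rose, 10 had a negative difference and the median difference was -0.0005; NSDHL, a sterol dehydrogenase, had the strongest rise, 0.54 and 0.41. Of 20 clock genes CRY2 and PER1 rose and NR1D2 fell, and 9 had a negative difference. CRY2, a repressor of the clock, had responses of 0.76 and 0.66.

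Genes of the receptor's own machinery and the remaining lists held few or no calls. Of 18 tested genes of the receptor's chaperone machinery FKBP5 alone rose and 6 had a negative difference. Of 26 coregulators, acetyltransferases and deacetylases 1 rose and 1 fell on average; HDAC1, a deacetylase, was the one that fell, with -0.10 and -0.12, and 8 had a negative difference. None of the 39 proteasome and ubiquitin ligase genes passed the test of the average response, and 25 had a negative difference. None of the 14 tested inflammatory genes passed it, and 8 had a negative difference, IL11, a cytokine, having the most negative K154Q value (-0.13 with K154R and -0.33 with K154Q). None of 24 cell cycle genes passed it, with 9 negative. Of the 14 hepatocyte markers AFP rose and FOXA2 fell, and 9 had a negative difference, and of the 4 tested markers of other cells none passed it and 2 were negative. None of the 13 mitochondrially encoded mRNAs passed it, and 2 had a negative difference. For the difference itself an unadjusted p under 0.05 was found for 1 gene each among the liver metabolic genes (PNMT), coregulators (MED1), proteasome genes (PSMA1), mitochondrial mRNAs (ATP8) and hepatocyte markers (APOA1), and for 0 genes of the other lists in this and the preceding paragraph. The share over all tested genes was 3.18%, and counts of 0 or 1 in lists of this size say nothing about the lists. MED1, PSMA1 and APOA1 were named after their values were seen.

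Gene length moved with the responses, and not in the same way in all pairs. Across the 10355 genes with at least 5 CPM, the pair response correlated with log2 gene length at r = -0.05, 0.44, -0.36 and -0.01 in K154R pairs 1 to 4, and at 0.26, 0.10, 0.29 and 0.24 in K154Q pairs 1 to 4; genes share libraries, so these values carry no test. In K154R pair 2 the shortest genes (length group 1 of 4 nearly equal groups) had a median response of -0.137 and the longest (group 4) 0.128, and in pair 3 the order was turned, with 0.0962 and -0.0707. K154R pair 3 also varied least with the other pairs (mean r 0.0683, against 0.257 to 0.394 for the rest). The difference of responses correlated with length at 0.289, and the 164 genes higher in K154Q at an unadjusted p under 0.05 had a median length of 5393 bases, against 3153.5 for the 340 lower ones and 4498 for all tested genes. The fit was repeated with each library's length trend removed, which brings r near 0 by construction (0.0021). In that refit 52 of the 65 genes had a negative difference with a median of -0.13, and 0 genes were called. The split at an unadjusted p under 0.05 went to 286 lower and 235 higher. The correction also removes any part of the response that follows length, so the part of length in the difference was not measured. Without both K154R pairs 2 and 3, 53 of the 65 had a negative difference.

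**Figure D5:**
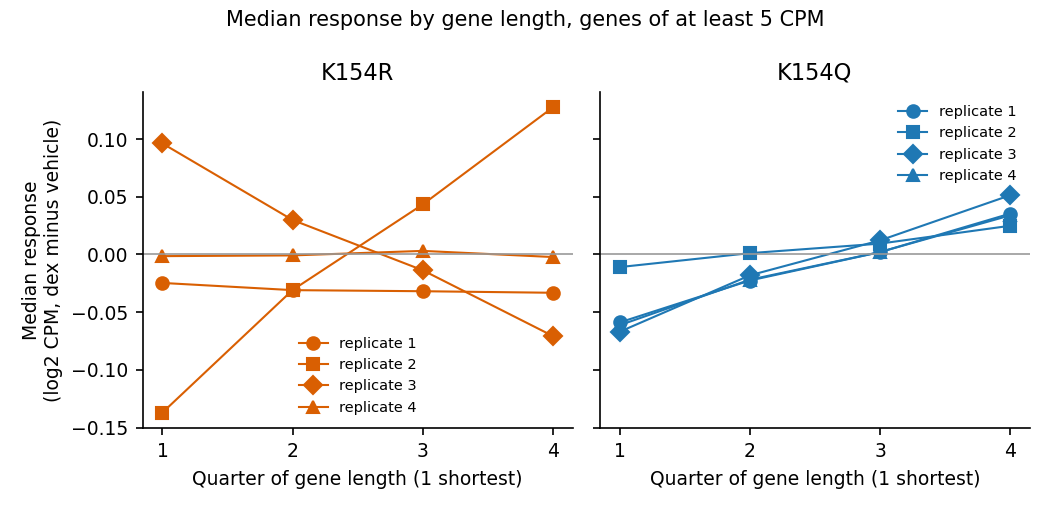
Median response (log2 CPM, dexamethasone minus vehicle) in 4 nearly equal groups of gene length, shortest first, for each pair of K154R (left) and K154Q (right), genes of at least 5 CPM. K154R pair 2 climbs from -0.137 to 0.128, K154R pair 3 falls from 0.0962 to -0.0707, and the K154Q pairs climb less.

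The few genes that passed the test of the difference in any alternative did so only where K154R pair 2, pair 3 or both were left out. Without K154R pair 2, edgeR called 6 genes higher in K154Q, WDFY3, GTF2I, KMT2D, DMXL2, NFAT5 and PEG3, and 1 lower, MT2A. The 6 have lengths of 9769 to 20485 bases, all above the median of tested genes, and in that refit the difference correlated with length at 0.493. Without both K154R pairs 2 and 3 KMT2D, a histone methyltransferase, was the only gene called. All of these but GTF2I were named after their values were seen. FSTL3 was the only call without pair 3 alone, where the correlation with length was 0.0191. Whether gene length has a part in these calls was not tested.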

How the data were processed

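Poly(A) RNA was sequenced from cultures of a cell line; as bulk RNA, fewer expressing cells and less RNA per cell cannot be told apart. The authors deposited raw counts per gene and a gene length, without normalization. Per the submitters' processing notes, bcl2fastq 2.20.0.422, cutadapt 3.7, STAR 2.7.6a and featureCounts 2.0.3 were used with GRCh38.p13; the sources used here do not give strand and multi-mapping settings, so gene families, overlapping and antisense genes are uncertain. Samples were grouped by title. The table held 60683 genes.

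In R 4.3.3, edgeR 4.0.16 kept 15871 genes (filterByExpr, 4 groups), scaled by TMM and fitted a quasi-likelihood model with 8 pair terms and a dexamethasone response per receptor (residual df 6). Calls used a Benjamini-Hochberg adjusted p under 0.05 over all tested genes. SE was taken as the absolute log2 estimate over the square root of F, and 95% intervals use 22.4 df. CPM is TMM-scaled. Pairing was checked on deviations from group means: same-number vehicle and dexamethasone libraries correlated at 0.28 or more (median 0.426), against at most 0.138 for other numbers. Chi-square per df between replicates of a group, unpaired and summed over genes, was at least 18.0, so they spread more than counting error gives. It does not show what limits the paired difference of responses. Replicates came from separate experiments and separate transductions of HepG2 cells, and p-values measure the spread of responses between their pairs.

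Alternatives (other blocks, scaling, filter, DESeq2 1.42.0, limma-voom with limma 3.58.1, left-out pairs) were planned; length correction, leaving out K154R pairs 2 and 3 together and the choice on WT were added after the data were seen. The members, lists and tests were chosen with earlier results of these data known. Named genes were the induced set of at least 5 CPM, the 8 smallest p in each direction of the difference at 1 CPM or more, up to 5 per list by the average response, and NR3C1, FKBP5, TSC22D3, PER1, DUSP1, PDK4, ANGPTL4 and PNMT. The fit was tested on simulated data. A member of 1 gene list is not reported here.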

Additional observations from a re-analysis of the deposited data

Results flagged for a closer look

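In groups of 4 libraries or pairs, a value was listed where its gap to the nearest other took most of the group's range; 12 of 222 groups checked met this, and chance gives about 1 in 20. Among pair responses, K154R pair 3 was low for GPR153 (0.58, others 1.25 to 1.36) and LGI4 (2.25, others 2.85 to 2.89). It was high for TMEM11-DT (0.24, others -0.43 to -0.40). K154Q pair 4 was high for PDK4 (3.64, others 2.15 to 2.40), and K154Q pair 1 was low for NXPH3 (0.59, others 1.35 to 1.48). Among CPM values with vehicle, K154R library 1 was high for ZYG11B (32.3, others 25.7 to 26.4) and GTF2I (62.0, others 38.9 to 42.8). K154R vehicle library 2 was low for PER1 (7.54, others 10.5 to 11.03), and K154Q vehicle library 3 was high for UPP2 (0.321, others 0.138 to 0.149). With dexamethasone, library 4 stood above the others for TSC22D3 in K154R (3.86, others 0.922 to 1.32), and in K154Q for SCNN1A (42.8, others 21.3 to 22.9) and NAPSB (4.04, others 1.05 to 1.51). The cause of these values was not tested.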

How the results depend on the processing

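Of 1280 recomputed values 1225 were counted as kept, by loose criteria. A gene's difference was kept if its sign stayed and it was not called, whatever its size. PDK4 counted as kept at -2.79 without K154R pairs 2 and 3 together, against -0.11 in the main fit. A median was kept if it moved by less than the SD over replicate numbers, even if its sign changed. A count of calls was kept within 1.5-fold. The difference gave 0 calls in every setting except 3: 0 to 6 genes higher and 0 to 1 lower when 1 pair was left out, and 1 higher without K154R pairs 2 and 3 together. The pairing matters for counts of calls. Without a replicate block, the average response gave 95 higher and 4 lower, K154R 39 calls and K154Q 15. With the replicate block by number shared by both receptors, the average gave 64 lower, K154R 216 and K154Q 130 calls, and with the block by pair and response by number the average gave 116 lower. Fitting all 24 libraries gave 110 lower, and no filter gave 415 K154Q calls. Leaving out 1 pair gave 372 to 1051 average genes higher, 64 to 827 lower, 177 to 845 K154R calls and 114 to 519 K154Q calls; without K154R pairs 2 and 3 together, 422 average genes were lower and K154Q had 928 calls. The median difference over the 12 genes was -0.46 to -0.18 with 1 pair left out, lowest without K154Q replicate 4. Differences of 6 genes changed sign, all far from the threshold. With 1 pair left out, OTULINL ran from -0.28 to 0.25, PDK4 from -0.92 to 0.59, CRY2 from -0.19 to 0.015, HOMER2 from -0.15 to 0.0064, PER1 from -0.16 to 0.051 and ANGPTL4 from -0.31 to 0.052. OTULINL was -0.046 with the block by pair and response by number and -0.35 without K154R pairs 2 and 3 together, where ANGPTL4 was 0.092. PDK4 was 0.068 with that block, 0.030 with DESeq2 and 0.050 with limma-voom. The causes were not tested. Depth limits genes with few vehicle counts, such as PNMT, PDK4, HIF3A, TSC22D3, NAPSB, UPP2 and KCNH2. Summed vehicle counts for K154R and K154Q were 16 and 17 for NAPSB, 42 and 22 for UPP2, and 35 and 33 for KCNH2.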
